A study of Saccharomyces cerevisiae with 8 samples.

Results

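The mRNA levels of 8 genes of budding yeast, Saccharomyces cerevisiae, are described here: the 7 HIS genes, whose enzymes make histidine (HIS1, HIS2, HIS3, HIS4, HIS5, HIS6 and HIS7), and GCN4, which encodes the transcription activator of amino acid synthesis genes. They were picked by systematic name from 6692 genes in a table of read counts, and 7 of the 8 had enough counts to be tested. RNA came from a wild type and from a strain with RAD27 knocked out, each kept for 4 hours at 30 or 37 °C in fresh YPD, a rich medium, after an overnight culture at 30 °C. The 4 groups held 2 libraries each, and the labels give neither the strain background nor any other allele. RAD27 encodes a flap nuclease that acts on Okazaki fragments in DNA replication.

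In R64 coordinates the coding regions of HIS1 (YER055C, chromosome V, 264892 to 265785), HIS2 (YFR025C, chromosome VI, 203743 to 204750), HIS4 (YCL030C, chromosome III, 65934 to 68333), HIS6 (YIL020C, chromosome IX, 314035 to 314820), HIS7 (YBR248C, chromosome II, 714807 to 716465) and GCN4 (YEL009C, chromosome V, 138918 to 139763) lie on the minus strand. Those of HIS3 (YOR202W, chromosome XV, 721946 to 722608) and HIS5 (YIL116W, chromosome IX, 142928 to 144085) lie on the plus strand. No other annotated gene overlaps any of them.

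The pathway begins when His1, ATP phosphoribosyltransferase, joins ATP to phosphoribosyl pyrophosphate. His4 carries several activities and acts both early and in the final oxidation to histidine, and His6, His7, His3, His5 and His2 act in between. When amino acids run short, the kinase Gcn2 phosphorylates the initiation factor eIF2, and ribosomes then pass over short upstream reading frames in the GCN4 leader and translate Gcn4. Gcn4 binds the core motif TGACTC before its target genes, a motif that Bas1, an activator of HIS4 and of adenine synthesis genes, also recognises.

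Library totals ran from 4734266 to 5588983 counts. RAD27 had 479 to 533 counts in the wild type libraries and 0 in every knockout library. The knockout pair at 37 °C differed most between replicates, with a chi-square per degree of freedom of 8.70 where the other pairs had 1.85 to 3.97 and counting error alone gives 1. CPM denotes library-scaled counts with TMM factors, given for replicate 1 and then 2 or as mean ± SD (n = 2), and changes are log2 fold changes ± SE from edgeR's quasi-likelihood test. A gene passed when its Benjamini-Hochberg adjusted p over all 5667 genes tested was under 0.05. Overlap of libraries between groups was read for the members alone. The share of all genes without overlap was not counted, so overlap describes the libraries and gives no added weight to a call. In bulk RNA, fewer cells using a gene and less RNA per cell cannot be told apart.

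A choice of the stretches around the TGACTC core is shown, from a search of both strands in the 500 bases before each start codon. These stretches carry the letters of the core that Gcn4 and Bas1 recognise, next to the genes whose levels follow. A match is a description of the sequence, not a measured binding site. Each is 30 bases from the R64 RefSeq genome, written 5′ to 3′ on the gene's strand, with TGACTC or its complement GAGTCA in capitals. The first HIS4 stretch holds a pair of copies. The HIS4 stretches hold all of its copies, the others hold the copy nearest the start codon, and those of HIS3 are not shown.
HIS4, chrIII:68571-68600, minus strand: aggcagtcgaacTGACTCtaatagTGACTC
HIS4, chrIII:68515-68544, minus strand: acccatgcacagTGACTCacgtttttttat
HIS5, chrIX:142714-142743, plus strand: tcttggatctgtTGACTCacttcaattgat
HIS1, chrV:265951-265980, minus strand: aagcttccaagtGAGTCAcctctaccgttg
HIS7, chrII:716592-716621, minus strand: ttcatgagaaaaGAGTCAgacatcgaaaca
HIS6, chrIX:314897-314926, minus strand: gtctagtgtgcaGAGTCAtacggaataatt

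HIS4 and HIS5 had 3 copies of the motif each, HIS1, HIS3 and HIS7 had 2, and HIS6 had 1. HIS2 and GCN4 had none in this window. Of the 6000 nuclear protein-coding genes with a full window, 759 (12.65%) held the motif at least once and 86 held 2 or more. The copy nearest the start codon lay 94 bases before it in HIS6, 122 in HIS3, 144 in HIS7, 183 in HIS1, 199 in HIS4 and 202 in HIS5. Before GCN4, 4 short reading frames that begin with ATG and end before the GCN4 start codon were found, beginning 361, 293, 176 and 151 bases upstream. RNA counts do not measure their use, and neither translation nor Gcn4 protein was measured here.

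**Figure D1:**
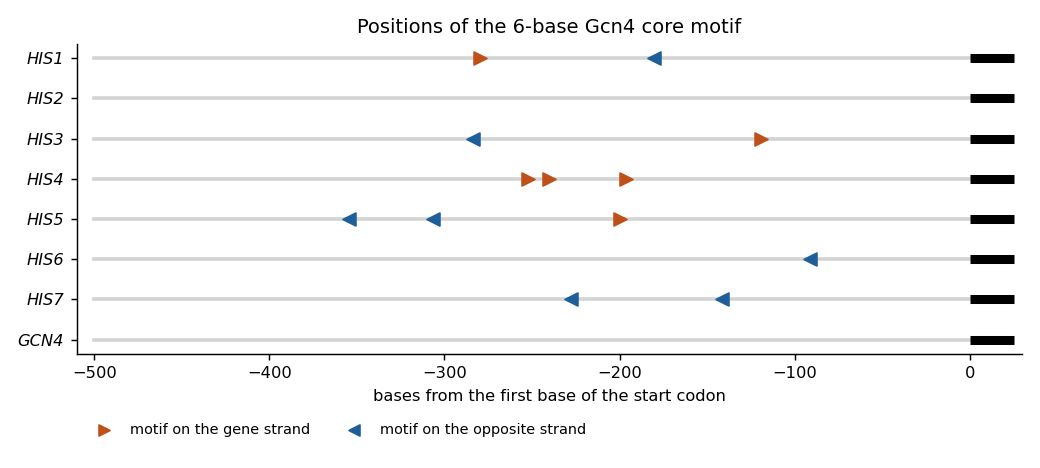
Position of each TGACTC motif (right-pointing, gene strand, and left-pointing, opposite strand) in the 500 bases before the start codon of the 8 genes, in bases on the horizontal axis. HIS4 and HIS5 carry 3 motifs each, and HIS2 and GCN4 carry none in this window.

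HIS3, for imidazoleglycerol-phosphate dehydratase, had 0 counts in all 8 libraries. Over the 2 libraries of a group, 0 counts allow at most 3, or 0.272 to 0.300 CPM before scaling, counting error only. The gene on one side, MRM1, had 174 to 249 counts per library, and DED1, an RNA helicase gene on the other, had 1895 to 2840. YOR203W, listed between HIS3 and DED1 in name order, had 0 to 2 (MRM1 and YOR203W were named after their counts were seen). The labels do not say whether HIS3 is intact in these strains, and since it was at 0 in both genotypes it took no part in any comparison.

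Scaled by coding length, GCN4 was the most abundant of the 7 detected genes in all groups. In wild type at 30 °C GCN4 stood at 1637 ± 51.1 CPM per kb and HIS1 at 362.4 ± 11.4. Below them HIS7 (94.2 ± 3.70 CPM per kb), HIS4 (92.7 ± 19.8) and HIS5 (88.9 ± 12.1) lay within the SD of HIS5 of each other, followed by HIS2 (66.4 ± 0.717) and HIS6 (48.6 ± 4.09). HIS4 moved most within that order. It was the lowest of the detected HIS genes in wild type at 37 °C (37.9 ± 3.40 CPM per kb), and in the knockout at 37 °C it stood second among them (155.5 ± 23.2), behind HIS1 (341.3 ± 10.8). HIS6 was the lowest in the other 3 groups, down to 26.7 ± 2.80 CPM per kb in the knockout at 37 °C.

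**Figure D2:**
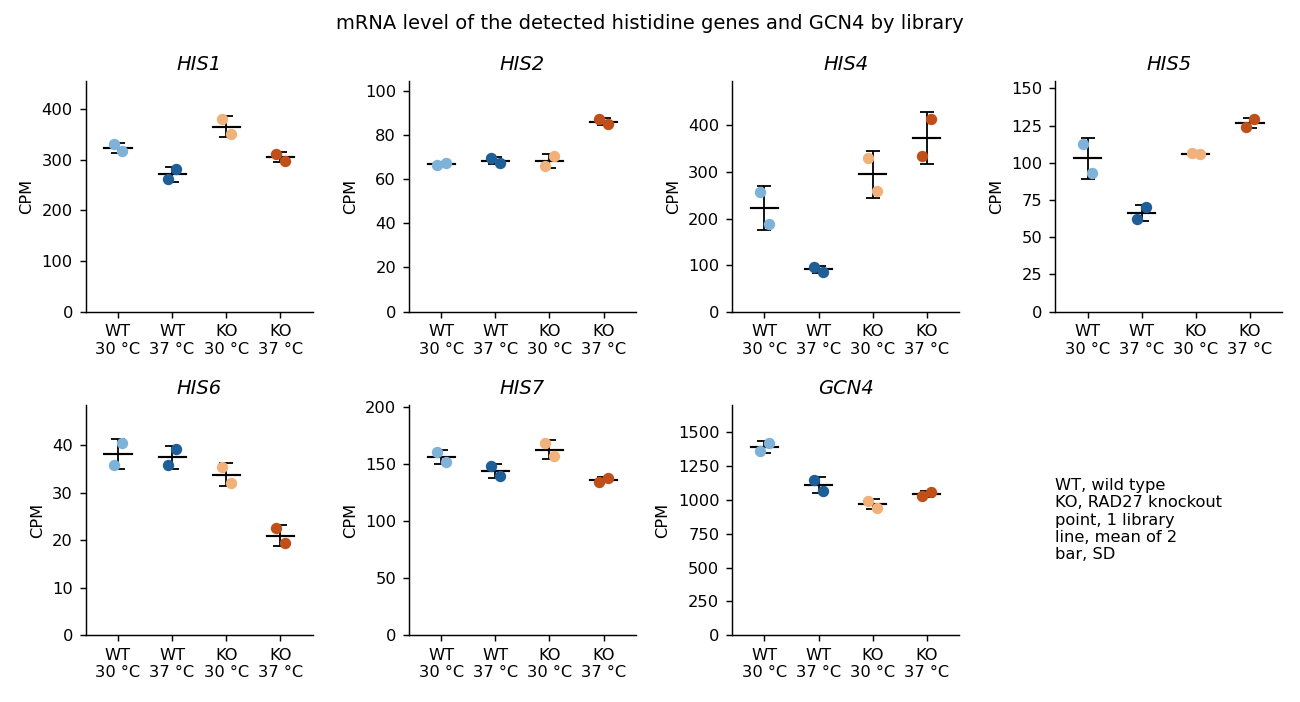
Level in CPM (vertical axes from 0) of the 7 detected genes in each of the 8 libraries; points are libraries, lines group means and bars SD. HIS4 falls to 96.6 and 85.1 CPM in wild type at 37 °C and stands at 333.9 and 412.7 CPM in the knockout at 37 °C, while HIS6 is lowest in the knockout at 37 °C.

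In wild type cells, 4 of the 7 tested members fell at 37 °C and the other 3 did not pass, against 32.8% of all genes tested that passed in either direction, 15.7% higher and 17.1% lower. HIS4 fell furthest. Its level was 256.1 and 188.8 CPM at 30 °C and 96.6 and 85.1 CPM at 37 °C, with no overlap, a 2.44-fold drop (-1.29 ± 0.16, adjusted p = 6.75e-05). HIS5, for histidinol-phosphate aminotransferase, went from 112.9 and 93.1 to 62.3 and 70.0 CPM (-0.64 ± 0.10, adjusted p = 0.000418), also without overlap. A link between these falls and the number of motifs before each gene was not tested.

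The other falls in wild type were smaller. GCN4 went from 1354.3 and 1415.4 to 1147.0 and 1064.6 CPM (-0.32 ± 0.07, adjusted p = 0.0029). HIS1 went from 331.2 and 316.8 to 261.3 and 281.7 CPM (-0.25 ± 0.07, adjusted p = 0.0142). In both genes the groups did not overlap. HIS7, for imidazole glycerol phosphate synthase, stood at 160.6 and 151.9 CPM at 30 °C and at 148.6 and 139.4 CPM at 37 °C (-0.12 ± 0.07, adjusted p = 0.243), without overlap but also without passing. Levels of HIS6, an isomerase gene, were 35.9 and 40.5 CPM against 35.8 and 39.2 CPM, and those of HIS2, for histidinolphosphatase, 66.5 and 67.5 CPM against 69.4 and 67.4 CPM. The libraries of the 2 temperatures overlapped in HIS6 and HIS2, and neither passed (-0.03 ± 0.12 and 0.03 ± 0.08). HIS1 did not pass when replicate 1 of wild type was left out at 30 °C (adjusted p = 0.106) or at 37 °C (adjusted p = 0.163), nor with scaling by library size alone (adjusted p = 0.149). GCN4 did not pass without wild type replicate 2 at 37 °C (-0.26, adjusted p = 0.0545). Scaling by library size alone raised the changes of all genes by a median of 0.13 on the log2 scale here and gave 1497 genes higher and 596 lower, against 891 and 967.

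In the knockout the same temperature step moved the members in both directions: HIS2 and HIS5 rose, HIS1, HIS6 and HIS7 fell, and HIS4 and GCN4 did not pass. The 5 calls among 7 tested members stand against 59.1% of all genes, 30.9% higher and 28.2% lower. HIS6 changed most, from 35.5 and 32.1 CPM at 30 °C to 22.5 and 19.4 CPM at 37 °C (-0.69 ± 0.13, adjusted p = 0.000648). HIS2 went from 65.9 and 70.4 to 87.0 and 84.7 CPM (0.33 ± 0.08, adjusted p = 0.00325). HIS5 rose by 0.26 ± 0.09 (adjusted p = 0.0282), from 106.2 and 105.7 to 124.3 and 129.1 CPM. The libraries of the temperatures did not overlap for HIS6, HIS2 or HIS5.

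HIS1 stood at 379.7 and 350.5 CPM at 30 °C and at 311.9 and 298.3 CPM at 37 °C in the knockout (-0.26 ± 0.07, adjusted p = 0.00581). HIS7 went from 168.2 and 156.7 to 134.5 and 137.7 CPM (-0.26 ± 0.07, adjusted p = 0.00831). Both fell without overlap, by amounts near that of HIS1 in wild type. HIS4 was at 331.0 and 258.8 CPM and then at 333.9 and 412.7 CPM (0.34 ± 0.14, adjusted p = 0.052). It missed the threshold narrowly. The size of its change depended on the library, at 0.47 without knockout replicate 1 at 37 °C, 0.18 without replicate 2 and 0.53 without knockout replicate 1 at 30 °C. For GCN4 the values were 992.4 and 938.8 CPM at 30 °C and 1026.2 and 1054.9 CPM at 37 °C (0.11 ± 0.07, adjusted p = 0.193). In HIS4 and GCN4 both libraries at 37 °C lay above both at 30 °C.

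Without knockout replicate 1 at 30 °C the calls of HIS1 (adjusted p = 0.0623), HIS7 (adjusted p = 0.0735) and HIS5 (adjusted p = 0.0906) were lost. That of HIS5 was also lost without knockout replicate 2 at 30 °C (adjusted p = 0.0939), without knockout replicate 2 at 37 °C (adjusted p = 0.0667) and in DESeq2 (adjusted p = 0.123). Scaling by library size alone raised the changes of all genes by a median of 0.24 in this comparison, with 2803 higher and 842 lower against 1751 and 1596, and HIS1 (-0.02) and HIS7 (-0.02) did not pass with it, whereas GCN4 (0.35) and HIS4 (0.58) did.

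Without heat, the knockout differed from wild type in 1 of the 7 tested members, GCN4, against 29.6% of all genes (14.6% higher and 15% lower). GCN4 fell to 0.697 of its wild type level (-0.52 ± 0.07, adjusted p = 0.000187), from 1384.9 ± 43.2 to 965.6 ± 37.9 CPM, with both knockout libraries below both of wild type. None of the HIS genes passed in edgeR or in DESeq2, while 2 of the 6 tested had an unadjusted p under 0.05 in edgeR. Those were HIS4 (222.4 ± 47.5 CPM in wild type and 294.9 ± 51.0 in the knockout, 0.41 ± 0.15, adjusted p = 0.051) and HIS1 (324.0 ± 10.2 and 365.1 ± 20.7 CPM, 0.17 ± 0.07, adjusted p = 0.0783). In both, the genotypes did not overlap. HIS4 passed in 9 of 16 other settings, among them edgeR with DESeq2 size factors (adjusted p = 0.048), and HIS1 in 3 of 16. The remaining HIS genes changed by -0.18 (HIS6) to 0.06 (HIS7) on the log2 scale.

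At 37 °C, HIS4, HIS5 and HIS2 were higher in the knockout than in wild type and HIS6 was lower, 4 of 7 tested members against 59.8% of all genes (30.5% higher and 29.2% lower). HIS4 was 4.11-fold higher, at 373.3 ± 55.7 CPM against 90.9 ± 8.16 (2.04 ± 0.15, adjusted p = 3.98e-07). Left with knockout replicate 1 or 2 alone, its log2 fold change was 1.86 or 2.16. HIS5 was 1.91-fold higher, at 126.7 ± 3.38 CPM against 66.2 ± 5.42 (0.94 ± 0.10, adjusted p = 4.73e-06). HIS6 stood at 21.0 ± 2.20 CPM against 37.5 ± 2.43 (-0.84 ± 0.13, adjusted p = 0.000121). None of the 3 genes overlapped between genotypes at this temperature, and neither did HIS2 or the uncalled HIS1, HIS7 and GCN4. With no share over all genes counted, the lack of overlap does not set these genes apart.

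HIS2 rose by 0.33 ± 0.08 in that comparison (85.8 ± 1.59 CPM against 68.4 ± 1.41, adjusted p = 0.00348), a call that DESeq2 did not make (adjusted p = 0.0534). HIS1 (0.17 ± 0.07, adjusted p = 0.0531), HIS7 (-0.08 ± 0.07, adjusted p = 0.355) and GCN4 (-0.09 ± 0.07, adjusted p = 0.287) did not pass. HIS1 passed in 5 of 17 other settings, among them library size alone (0.29, adjusted p = 0.00245) and the replicate block within genotype (adjusted p = 0.0358). GCN4 stood at 1105.8 ± 58.3 CPM in wild type and 1040.6 ± 20.2 CPM in the knockout. Library size scaling gave 2182 genes higher and 1123 lower here, against 1731 and 1656, and turned the uncalled changes of HIS7 (0.04) and GCN4 (0.04) positive. Summed over the HIS genes, wild type had 963.1 and 858.6 CPM at 30 °C and 674.0 and 682.9 CPM at 37 °C, and the knockout had 1086.6 and 974.3 CPM at 30 °C and 1014.2 and 1081.9 CPM at 37 °C. HIS4 made up 14.3 and 12.5% of that sum in wild type at 37 °C and 32.9 and 38.1% in the knockout at 37 °C. These sums are not scaled by coding length, and HIS4 has the longest coding region of the HIS genes (2400 bases).

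**Figure D3:**
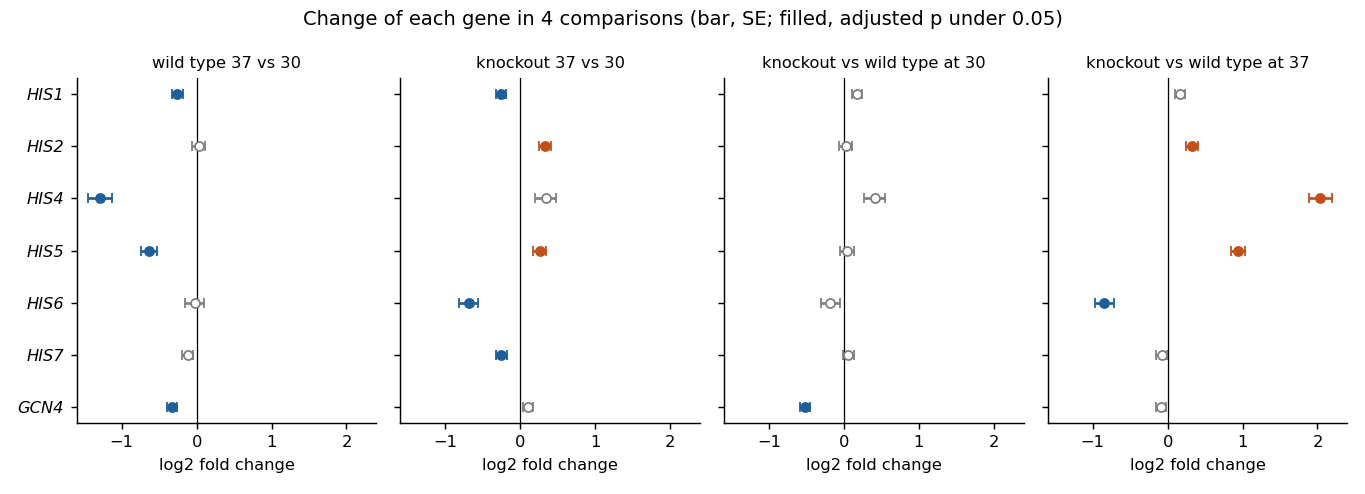
Log2 fold change ± SE (horizontal axes) of the 7 tested genes in 4 comparisons; filled points passed at an adjusted p under 0.05 and open points did not. HIS4 stands at -1.29 for heat in wild type and at 2.04 for the knockout against wild type at 37 °C, and GCN4 at -0.52 for the knockout at 30 °C.

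The temperature response itself differed between the genotypes for 4 of the 7 tested members, HIS4, HIS5, GCN4 and HIS6, against 33.6% of all genes (16.4% higher and 17.2% lower). For HIS4 the knockout's response exceeded that of wild type by 1.63 ± 0.21 on the log2 scale (adjusted p = 0.000156), for HIS5 by 0.89 ± 0.14 (adjusted p = 0.00044) and for GCN4 by 0.43 ± 0.10 (adjusted p = 0.00482). HIS6 went the other way (-0.66 ± 0.18, adjusted p = 0.0131). HIS2 (0.30 ± 0.12, adjusted p = 0.0627), HIS7 (-0.14 ± 0.10, adjusted p = 0.324) and HIS1 (-0.00 ± 0.10, adjusted p = 0.979) did not pass. HIS2 passed with library size scaling (0.41, adjusted p = 0.026). The HIS6 difference was lost in DESeq2 (adjusted p = 0.0624) and without wild type replicate 1 at 30 °C (adjusted p = 0.0546), wild type replicate 2 at 37 °C (adjusted p = 0.051) or knockout replicate 1 at 30 °C (adjusted p = 0.0606). With library size scaling 1197 genes had a higher and 604 a lower response in the knockout, against 930 and 972.

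A list of 48 genes that Gcn4 is known to control, most of them for the synthesis of other amino acids, was set beside the HIS genes. The list, called other amino acid genes below, also holds a few genes outside those pathways, such as SNO1. In wild type 23 of the 48 fell at 37 °C and 3 rose, with a median log2 fold change of -0.22 where that of all 5667 genes was 0.01, and the median of the 6 tested HIS genes was -0.19. Of all genes, 15.7% rose and 17.1% fell in that comparison. Library size scaling gave 5 higher and 16 lower of the 48. ARG1, for argininosuccinate synthase, fell most among those with more than a few CPM (-2.23 ± 0.21, adjusted p = 8.85e-06, from 160.8 ± 47.0 to 34.2 ± 1.17 CPM). ARG3, for ornithine carbamoyltransferase, also fell (-1.19 ± 0.24, adjusted p = 0.00224). SNO1, a gene of vitamin B6 metabolism, was low throughout, at 4.27 ± 3.11 CPM and then 0.851 ± 0.136 CPM (-2.27 ± 0.62, adjusted p = 0.0137).

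In the knockout at 37 against 30 °C, 14 of the 48 rose and 17 fell (median -0.05, all genes 0.04, HIS genes 0.00), beside 30.9% higher and 28.2% lower over all genes. ARG3 rose by 2.03 ± 0.14 (adjusted p = 1.46e-07), whereas BAT1, a branched-chain aminotransferase gene, fell (-2.17 ± 0.07, adjusted p = 3.28e-10), as did ILV3, of isoleucine and valine synthesis (-1.24 ± 0.08, adjusted p = 1.04e-07). With library size scaling this majority turned, to 24 higher and 12 lower.

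**Figure D4:**
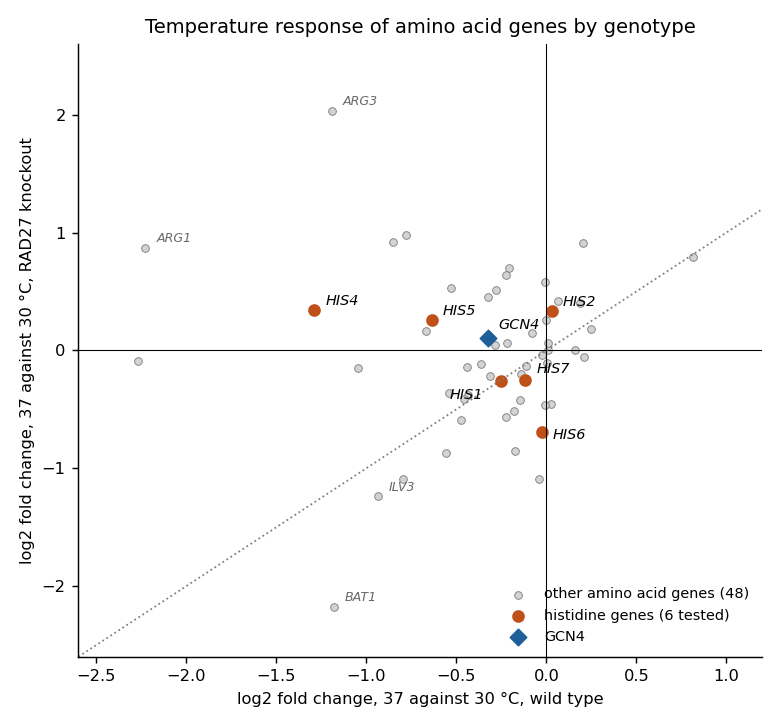
Log2 fold change at 37 against 30 °C in wild type (horizontal) and in the RAD27 knockout (vertical) for the 48 other amino acid genes (grey), the 6 tested HIS genes (orange) and GCN4 (diamond); the dotted line marks equal responses. HIS4 lies at -1.29 and 0.34, ARG3 at -1.19 and 2.03, and BAT1 at -2.17 on the vertical axis.

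Between genotypes at 30 °C, 22 of the 48 other amino acid genes were higher in the knockout and 2 lower (median 0.24, all genes -0.00, HIS genes 0.05), beside 14.6% and 15% of all genes. BAT1 rose by 1.14 ± 0.07 (adjusted p = 3.53e-07), ARG1 by 1.13 ± 0.17 (adjusted p = 0.000369) and MET16, of sulfate assimilation, by 0.91 ± 0.15 (adjusted p = 0.000704). At 37 °C, 30 were higher and 6 lower (median 0.39, all genes 0.01, HIS genes 0.25), beside 30.5% and 29.2% of all genes. ARG1 rose by 4.23 ± 0.20 (adjusted p = 5.13e-09, 643.2 ± 99.3 CPM in the knockout), ARG3 by 3.64 ± 0.17 (adjusted p = 6.54e-09) and ARG5,6, for early enzymes of ornithine synthesis, by 2.04 ± 0.11 (adjusted p = 1.69e-08). The response differed between genotypes in 24 of the 48, 15 with a higher value in the knockout and 9 with a lower one (19 and 6 with library size scaling), beside 16.4% and 17.2% of all genes, among them ARG3 (3.22 ± 0.28, adjusted p = 8.04e-06) and ARG1 (3.10 ± 0.26, adjusted p = 6.01e-06). The motif lay before 37 of these 48 genes.

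Genes that supply or use histidine, or share precursors with its synthesis, were set beside it as well. HIP1, the high-affinity histidine permease gene, rose at 37 °C in wild type (0.44 ± 0.06, adjusted p = 0.000236, from 271.6 ± 5.49 to 368.3 ± 12.5 CPM) and in the knockout (0.56 ± 0.06, adjusted p = 9e-06, from 245.2 ± 11.1 to 362.7 ± 0.830 CPM). With TMM it was the sole call in wild type among 9 such genes, against 32.8% of all genes, and library size scaling gave 5 higher and 0 lower. The list also holds HTS1, for histidyl-tRNA synthetase, the PRS genes, which make phosphoribosyl pyrophosphate, and ADE16 and ADE17, which recycle the by-product of the His7 step. In the knockout at 37 against 30 °C, 2 rose and 4 fell, 6 of 9 against 59.1% of all genes, with PRS5 at -0.48 ± 0.07 (adjusted p = 8.52e-05) and HTS1 at -0.39 ± 0.07 (adjusted p = 0.00022), while library size scaling gave 5 higher and 2 lower. Between genotypes at 30 °C none of the 9 passed in edgeR or in DESeq2, against 29.6% of all genes, and 6 had an unadjusted p under 0.05. With library size scaling 1 was higher. At 37 °C, 1 was higher and 5 lower in the knockout (2 and 2 with library size scaling), against 59.8% of all genes, led by HTS1 (-0.41 ± 0.07, adjusted p = 0.00016), PRS3 (-0.39 ± 0.07, adjusted p = 0.000261) and PRS5 (-0.28 ± 0.07, adjusted p = 0.00417). The temperature response differed between genotypes in 2 of them (1 with library size scaling), against 33.6% of all genes, HTS1 (-0.38 ± 0.09, adjusted p = 0.00756) and PRS5 (-0.32 ± 0.10, adjusted p = 0.0272).

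Of 15 genes that act in translational control of GCN4 (the Gcn2 kinase and its partners, eIF2, its exchange factor eIF2B and start codon factors), every gene that passed was lower in each comparison with TMM or DESeq2 size factors. Library size scaling gave 2 higher and 5 lower for heat in wild type, 2 and 4 in the knockout, and 1 and 4 for the difference in response. With TMM, at 37 °C 8 of the 15 fell in wild type, where 17.1% of all genes fell, and 11 in the knockout, where 28.2% did. SUI1, for the start codon factor eIF1, stood at -0.56 ± 0.07 (adjusted p = 8.23e-05) and -0.94 ± 0.07 (adjusted p = 3.07e-07), and SUI3, for the beta subunit of eIF2, at -0.53 ± 0.07 (adjusted p = 8.63e-05) and -0.67 ± 0.07 (adjusted p = 3.4e-06). In the knockout against wild type, 4 were lower at 30 °C, where 15% of all genes were, and 13 at 37 °C, where 29.2% were (8 of the 15 with library size scaling). At 30 °C SUI2, for the subunit of eIF2 that Gcn2 phosphorylates, was lower (-0.52 ± 0.07, adjusted p = 0.000256), as were GCN2 (-0.35 ± 0.08, adjusted p = 0.00746) and GCN1, whose product activates Gcn2 (-0.24 ± 0.07, adjusted p = 0.0145). At 37 °C GCN1 stood at -0.70 ± 0.07 (adjusted p = 2.36e-06). The response differed between genotypes in 5 of the 15, all lower in the knockout, as for 17.2% of all genes, with GCD11, for the gamma subunit of eIF2, at -0.51 ± 0.09 (adjusted p = 0.00166).

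Among 9 genes for turnover of Gcn4 protein, PCL5, a cyclin whose kinase marks Gcn4 for degradation, was higher in the knockout at both temperatures. In wild type PCL5 had 179.4 ± 21.7 CPM at 30 °C against 231.5 ± 11.9 CPM at 37 °C, and in the knockout 230.1 ± 17.8 and 414.5 ± 21.6 CPM. PCL5 rose with heat in wild type (0.37 ± 0.09, adjusted p = 0.00748), by less than in the knockout (0.85 ± 0.09, adjusted p = 3.4e-06, difference 0.48 ± 0.12, adjusted p = 0.0106). The whole list had 3 higher and 1 lower with heat in each genotype, where 32.8% (wild type) and 59.1% (knockout) of all genes passed. Library size scaling gave 5 higher and 1 lower in wild type and 6 higher and 0 lower in the knockout. In the knockout against wild type 3 were higher at 30 °C and 4 at 37 °C, beside 14.6% and 30.5% of all genes. The response differed between genotypes in 2 of the 9 (3 with library size scaling), against 33.6% of all genes, PCL5 and CDC48 (-0.39 ± 0.09, adjusted p = 0.00569).

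Other regulators of HIS genes, 10 in number, were lower in the knockout at 37 °C than in wild type in 9 of 10 cases (6 with library size scaling), beside 29.2% of all genes. These included BAS1, the partner activator at HIS4 (-0.60 ± 0.10, adjusted p = 0.000253), MBF1, a coactivator that bridges Gcn4 to the general machinery (-0.56 ± 0.08, adjusted p = 8.49e-05), and RAP1, a general regulatory factor that binds before HIS4 (-0.55 ± 0.07, adjusted p = 2.53e-05). BAS1 stood at 221.6 ± 10.6 CPM in wild type and 146.5 ± 14.4 CPM in the knockout at 37 °C. With heat, 3 of the 10 rose and 2 fell in wild type, where 32.8% of all genes passed, with BAS1 among the risers (0.38 ± 0.10, adjusted p = 0.0123). In the knockout 3 fell and 0 rose, where 59.1% of all genes passed (3 higher and 2 lower with library size scaling), and MBF1 fell most (-0.94 ± 0.08, adjusted p = 9.64e-07). At 30 °C 1 was higher and 3 lower in the knockout, where 29.6% of all genes passed. The response differed between genotypes in 2 (1 with library size scaling), against 33.6% of all genes, MBF1 (-0.94 ± 0.11, adjusted p = 9.22e-05) and BAS1 (-0.41 ± 0.15, adjusted p = 0.0467).

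Likeness of pattern was measured as Pearson's r of log2 CPM over the 8 libraries among 5126 candidate genes (mean level 10 CPM or more), as a description, since the libraries fall into 4 groups of 2. Closest to HIS4 were PPH21 (r = 0.997), APE2 (0.994) and ARG1 (0.988), and closest to HIS5 were APE2 (0.977), AIM41 (0.976) and YER134C (0.971). HIS4 and HIS5 had r = 0.965 with each other, the highest of the 21 pairs of tested members. GCN4 was closest to POP4 (0.975), AFG1 (0.973) and NPT1 (0.971), and its r with the HIS genes lay between -0.34 (HIS2) and 0.42 (HIS6). For HIS1 the nearest genes were ERP2 (0.988), ADE1 (0.971) and RNH201 (0.970), for HIS7 MAG2 (0.980), SLY1 (0.968) and CMC1 (0.968), for HIS6 RER2 (0.993), SSZ1 (0.992) and RPF1 (0.991), and for HIS2 ICY1 (0.993), VPS27 (0.992) and UBX6 (0.984). HIS2 and HIS6 ran opposite to each other (r = -0.95). A high r says nothing of size: at 37 °C APE2 averaged 238.3 CPM in wild type and 327.7 CPM in the knockout, while HIS4 averaged 90.9 and 373.3 CPM.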

How the data were processed

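mRNA of yeast was measured in 8 libraries, made with the Kapa mRNA HyperPrep kit per the labels' protocols. The authors deposited whole-number counts of reads for each gene. STAR, HTSeq and the builds R64 and sacCer3 are named, per the submitters' processing notes, while versions, strand use and the handling of multiply mapping reads were not given in the sources used here. Columns were matched to samples by genotype, temperature and replicate number.

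Counts of all 8 libraries entered 1 model with a coefficient per group and TMM scaling in edgeR 4.0.16 (R 4.3.3), tested by quasi-likelihood, after filterByExpr (count at least 10, total at least 15), which left 5667 of 6692 genes. The 5 comparisons were heat in each genotype, genotype at each temperature and their interaction. The SE is the absolute log2 fold change over the square root of F. Coordinates, motifs and neighbours came from the R64 RefSeq assembly, in which no other gene overlaps a member. The table also lists genes that this annotation lacks, whose positions were not checked. A search with blastn 2.17.0 found no second copy of a member, taking 80% identity along 50% of its length as a copy.

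Whether the 2 libraries of a group came from separate cultures is not in the labels. The p-values therefore reflect only the spread among these libraries, which may be technical, pooled over the 4 groups. Members and lists were chosen with earlier results of these data known. Named genes are the 8 members, their neighbours past the threshold, the 3 genes most like each member, RAD27, and up to 3 genes per list and comparison with the largest changes past the threshold. The text describes only some of the list genes that this rule allows, and 1 of those left out is not reported here. The adenine list had 10 genes, of which ADE2 was not tested, and is described with the neighbours in the closing section. A few further values (MRM1, YOR203W, ADE2) were added after they were seen. List counts under the other scalings were added after seeing the data. Alternatives were DESeq2 size factors, library size alone, no filter, DESeq2 1.42.0, the 4 libraries of a comparison alone, replicate blocks, a test against a 1.5-fold change and each library left out. A group left with 1 library is assumed to vary like the others, so calls gained or lost that way also reflect the pooled spread. The procedure was also run on simulated data in which all groups shared the same spread for each gene, unlike the pairs here. That run is not used as support for any call. Figures were drawn with Python 3.11.15 and matplotlib 3.10.9.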

Additional observations from a re-analysis of the deposited data

Results flagged for a closer look

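The temperature response differed between the genotypes, by the interaction test in edgeR, for 4 members. HIS4 had a difference of 1.63 ± 0.21 on the log2 scale, knockout minus wild type (adjusted p = 0.000156). It was lower at 37 °C than at 30 °C in both wild type libraries, whereas in the knockout both libraries at 37 °C were above both at 30 °C. The knockout values lay close, at 331.0 and 258.8 CPM at 30 °C and 333.9 and 412.7 CPM at 37 °C. That change of HIS4 in the knockout did not pass (0.34 ± 0.14, adjusted p = 0.052). HIS5 had a difference of 0.89 ± 0.14 (adjusted p = 0.00044), with its libraries in the same order by temperature as those of HIS4 in each genotype. GCN4 had a difference of 0.43 ± 0.10 (adjusted p = 0.00482), from a fall in wild type and no call in the knockout. HIS6 had a difference of -0.66 ± 0.18 (adjusted p = 0.0131), with libraries that overlapped in wild type and did not in the knockout.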

How the results depend on the processing

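Of 35 results on single members, 18 passed, and none of those 18 changed sign in up to 17 other settings each. Apart from the test against a 1.5-fold change, 11 of them kept their call in all settings. The 3 HIS4 calls and that of HIS5 for genotype at 37 °C kept it in that test too. Against a 1.5-fold change, members past the threshold numbered 1 and 0 for heat in wild type and knockout, 0 and 2 for genotype at 30 and 37 °C and 1 for the interaction, and genes overall 129, 848, 88, 724 and 285.

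For genotype at 30 °C the 1 member became 2 with DESeq2 size factors, library size alone or either replicate block and 3 with the 4 libraries alone, and the 1680 genes became 1071 in DESeq2. Leaving out 1 library gave 3 to 4 members and 1044 to 2267 genes for heat in wild type, 3 to 6 and 2832 to 3402 for heat in the knockout, 1 to 3 and 972 to 2164 for genotype at 30 °C, 4 to 5 and 2740 to 3451 at 37 °C, and 3 to 4 and 1339 to 2388 for the interaction. The counts of genes moved by over 1.5 times for heat in wild type without its replicate 2 at 30 °C (1121) or replicate 1 at 37 °C (1044), and for genotype at 30 °C without wild type replicate 1 (972) or 2 (1005) or knockout replicate 2 (1087). The 5 members for heat in the knockout became 3 without knockout replicate 1 at 30 °C.

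Signs turned in results that had not passed. With library size alone these were HIS6 (0.0988) and HIS7 (0.00737) for heat in wild type, HIS7 (0.0445) and GCN4 (0.0378) for genotype at 37 °C and HIS1 (0.110) for the interaction. Leaving out 1 library gave -0.109 to 0.0624 for HIS6 for heat in wild type, -0.0266 to 0.0712 for HIS2 and -0.0927 to 0.187 for HIS5 for genotype at 30 °C, and -0.0773 to 0.0594 for HIS1 for the interaction. The causes were not tested.

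Same-numbered libraries of different groups deviated with r between -0.11 and 0.11 across genes, so the numbers were not taken as pairs. With the replicate block HIS4 passed for heat in the knockout (0.36, adjusted p = 0.0249) and for genotype at 30 °C (0.41, adjusted p = 0.0285), where 1775 genes passed. A block with crossed numbers at 37 °C, added after seeing the data, gave 5 members and 3494 genes. HIS3 could not be told from 0 at these depths, and HIS6 had 115 to 208 counts per library.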

Other observations

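All 10 genes of an adenine synthesis list, which share the activator Bas1 with HIS4, held the TGACTC motif before the start codon, 7 of them at least 2 times. Of the 9 tested, 1 rose and 3 fell with heat in wild type and 2 rose and 5 fell in the knockout, where 32.8% and 59.1% of all genes passed. ADE13 fell in both (-0.66 ± 0.07, adjusted p = 2.3e-05, and -0.63 ± 0.07, adjusted p = 7.75e-06). Between genotypes 1 was higher and 3 lower in the knockout at 30 °C, against 29.6% of all genes, and 3 were higher and 5 lower at 37 °C, against 59.8%. There ADE12 rose by 0.77 ± 0.06 (adjusted p = 9.03e-07) and ADE6 fell (-0.69 ± 0.07, adjusted p = 5.59e-06). With library size scaling 4 were higher and 4 lower at 37 °C. The response differed between genotypes in 2, against 33.6% of all genes, ADE12 (0.67 ± 0.09, adjusted p = 0.00023) and ADE5,7 (-0.44 ± 0.10, adjusted p = 0.00624). ADE2 had 0 to 3 counts per library.

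Of 16 genes next to a member, 13 were tested, and 6 passed with heat in wild type (32.8% of all genes did), 8 with heat in the knockout (59.1%), 3 between genotypes at 30 °C (29.6%), 10 at 37 °C (59.8%) and 8 in the difference of responses (33.6%). Beside HIS7, ARO4, for an enzyme of aromatic amino acid synthesis, was higher in the knockout at 30 °C (0.49 ± 0.07, adjusted p = 0.000404) and 37 °C (0.67 ± 0.07, adjusted p = 7.63e-06), where HIS7 did not pass, while ENP1 on the other side was lower at 37 °C (-0.94 ± 0.09, adjusted p = 3.21e-06). Beside HIS4, RRP7, a ribosome assembly gene, fell in the knockout at 37 °C against wild type (-0.23 ± 0.08, adjusted p = 0.0216) while HIS4 rose. Next to HIS6, both RPB3 (-0.27 ± 0.07, adjusted p = 0.00452) and FAF1 (-0.75 ± 0.10, adjusted p = 5.77e-05) fell in that comparison, as HIS6 did. GIP2, beside HIS1, was higher in the knockout at 37 °C (2.34 ± 0.25, adjusted p = 6.64e-06), and FCY2, on the other side, was lower (-0.61 ± 0.09, adjusted p = 7.24e-05). Of the neighbours of HIS5, PRM5 was higher there (0.51 ± 0.09, adjusted p = 0.000412) and NUP159 lower (-0.51 ± 0.07, adjusted p = 4.12e-05). DED1, beside HIS3, was lower as well (-0.62 ± 0.06, adjusted p = 3.99e-06). LSB3, beside HIS2, did not pass at 37 °C and was higher in the knockout at 30 °C (0.57 ± 0.07, adjusted p = 0.000106).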
